A study of Mus musculus with 12 samples.

Results

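Glycosaminoglycans are the long sulfated sugar chains that turn a core protein into a proteoglycan. A set of 39 genes was followed in chondrocytes, or cartilage cells, of mouse ribs. Most of them serve to make or sulfate these chains, and 2 encode sulfatases. The members were taken by symbol from a written list, and all 39 were found among the 17922 genes of the expression table. They fall into 8 genes for sugar and sulfate donors and their transporters, 6 for the linker between protein and chain, 6 for the chondroitin chain, 10 for chondroitin and dermatan sulfation, 7 for heparan sulfate and 2 sulfatases. Cells came from 4 groups of 3 samples each. The LDH knockout carried Col2-Cre, Ldha fl/fl and Ldhb+/- and came from mice at postnatal day 5. The Acly knockout carried Col2-Cre and Acly fl/fl and came from embryos at E18.5. Ldha and Ldhb encode the subunits of lactate dehydrogenase, and Acly encodes ATP citrate lyase, which makes acetyl-CoA in the cytoplasm. Each knockout had littermate controls of its own, whose genotype is given only as LDH or Acly, so whether they carried Cre, floxed alleles or Ldhb+/- was not given. All groups had the same mixed strain background in which C57BL/6 dominated, and all cells had been freed with collagenase and cultured overnight before RNA was taken. Col2-Cre is a recombinase under a type II collagen promoter, which acts in cartilage cells and leaves the target gene intact in other cells of the digest. The series set out to see what less glycolysis and less cytoplasmic acetyl-CoA do to the developing skeleton.

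A chondroitin or heparan sulfate chain begins with a xylose placed on a serine of the core protein, followed by galactose, galactose and glucuronic acid, and is then lengthened by alternating sugars in the Golgi. Sulfotransferases add sulfate from the donor PAPS (phosphoadenosine phosphosulfate) at set positions, and epimerases turn chondroitin into dermatan sulfate. In cartilage the chondroitin sulfate on aggrecan binds water and gives the tissue its stiffness in compression, and inherited loss of several of these genes causes skeletal dysplasia.

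The libraries held 26362407 to 28154143 expected counts each, so that 3 counts correspond to 0.107 to 0.114 counts per 1000000 (CPM). Ldha CPM was 10.3% of the control mean in the LDH knockout, Acly CPM was 37.6% in the Acly knockout, and the permutation p of each was 0.1, the smallest that 3 against 3 samples allow in an exact test. Ldhb stood at 129% of control in the LDH knockout (log2 difference 0.37, adjusted p = 0.115). Since it was not given whether the controls carried Ldhb+/-, this does not show what the heterozygous allele does to the Ldhb level. The 10 chondrocyte markers all had an entry, led by Col2a1 at a mean of 2245 to 6969 transcripts per 1000000 (TPM) by group. Matn1 was the lowest, at means of 0.08 to 3.07 TPM, and did not pass the filter on low counts in the LDH set. The 7 fibroblast or perichondrium markers summed to 245 to 581 CPM over the 6 LDH samples and to 1263 to 4131 CPM over the 6 Acly samples. Y-linked genes summed to 0 to 0.0367 CPM in the LDH knockout and to 93.0, 102 and 0.590 CPM in its controls, so the makeup of the groups by sex differed there. The Acly samples had 0.0755, 74.3 and 82.8 CPM in knockouts and 0.375, 121 and 2.83 CPM in controls.

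Levels can be set between genes only per transcript length, and for that the deposited TPM was used. Over the 6 control samples Ugdh, the UDP-glucose dehydrogenase that makes UDP-glucuronic acid, had the highest mean level of the 39 genes at 168 TPM. Chpf, a partner of the chondroitin polymerase, followed at 129 TPM, then Uxs1, which makes UDP-xylose, at 106 TPM, B3gat3, which adds the last sugar of the linker, at 91.0 TPM, and Slc35b2, the Golgi PAPS transporter, at 87.8 TPM. Papss2, which makes PAPS, had 83.5 TPM and Ext2, a subunit of the heparan sulfate polymerase, 80.7 TPM. The low end held 3 sulfotransferases, with Chst15 at 1.81 TPM, Chst3 at 0.98 TPM and Chst13 at 0.0483 TPM. In the GENCODE annotation vM21, 17.9% of the exon bases of Chst15 overlap the antisense gene Gm10584. Chst13 had 5, 0 and 0 expected counts in LDH knockouts, 2, 0 and 0 in LDH controls, 1, 2 and 0 in Acly knockouts and 4, 0 and 1 in Acly controls. It did not pass the filter on low counts, and the other 38 members passed it in every comparison. The 39 genes together took 1529 ± 20.6 TPM in LDH knockouts and 1441 ± 60.1 TPM in LDH controls (mean ± SD, n = 3), and 1601 ± 63.4 TPM in Acly knockouts and 1634 ± 56.1 TPM in Acly controls. Each LDH knockout lay above each LDH control in this sum, and the Acly groups overlapped.

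**Figure D1:**
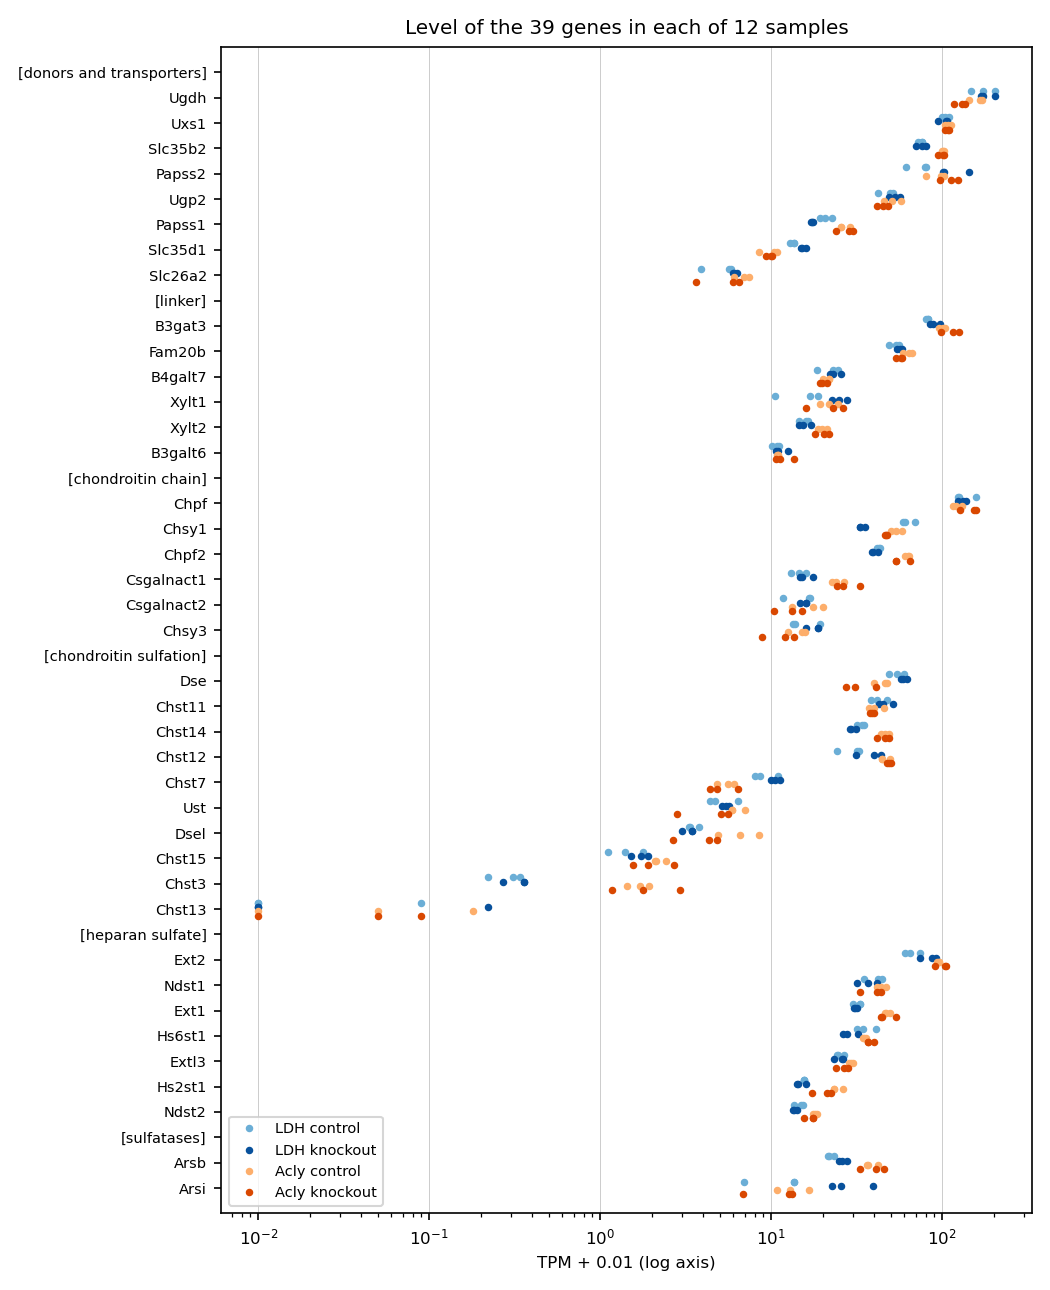
TPM + 0.01 (log axis) of each of the 39 genes, by role, in 12 samples, with 1 point per sample coloured by group. Ugdh, Chpf and Uxs1 are the highest in controls at means of 168, 129 and 106 TPM, and Chst13 lies near 0 in all samples.

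In the LDH comparison 3 of the 38 members tested passed an adjusted p of 0.05, which is 7.89% of them beside 2.49% of all genes tested. Chsy1, a chondroitin synthase, fell (1 member lower, beside 1.07% of all genes), and Papss2 and the arylsulfatase gene Arsi rose (2 members higher, beside 1.43% of all genes). At an unadjusted p of 0.05 the members called were 10, or 26.3%, beside 19.6% of all genes. In 9 members, 23.7%, the 3 knockout values did not overlap the 3 control values, beside 24.3% of all genes, so by that measure the members were near the background. The median log2 difference of the 38 members was 0.12 and that of all genes tested was 0.0051. For 26 of the 38 the difference was positive, beside 51% of all genes. For 34 of the 38 it was under 0.5 in size on the log2 scale, beside 89.5% of all genes.

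In the Acly comparison edgeR called 0 of the 38 members, beside 0.136% of all genes, and DESeq2 also called 0. At an unadjusted p of 0.05 there were 6, or 15.8%, equal to the 15.8% of all genes. Values did not overlap in 9 members, 23.7%, beside 22.0% of all genes, with 4 higher and 5 lower. The members' median log2 difference was 0.025, their range was -0.66 to 0.36, and 37 of 38 were under 0.5 in size, beside 90.3% of all genes. The signs of both comparisons matched for 21 of the 38 members, 55.3%, beside 57.4% of all genes, and the comparisons share no samples.

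**Figure D2:**
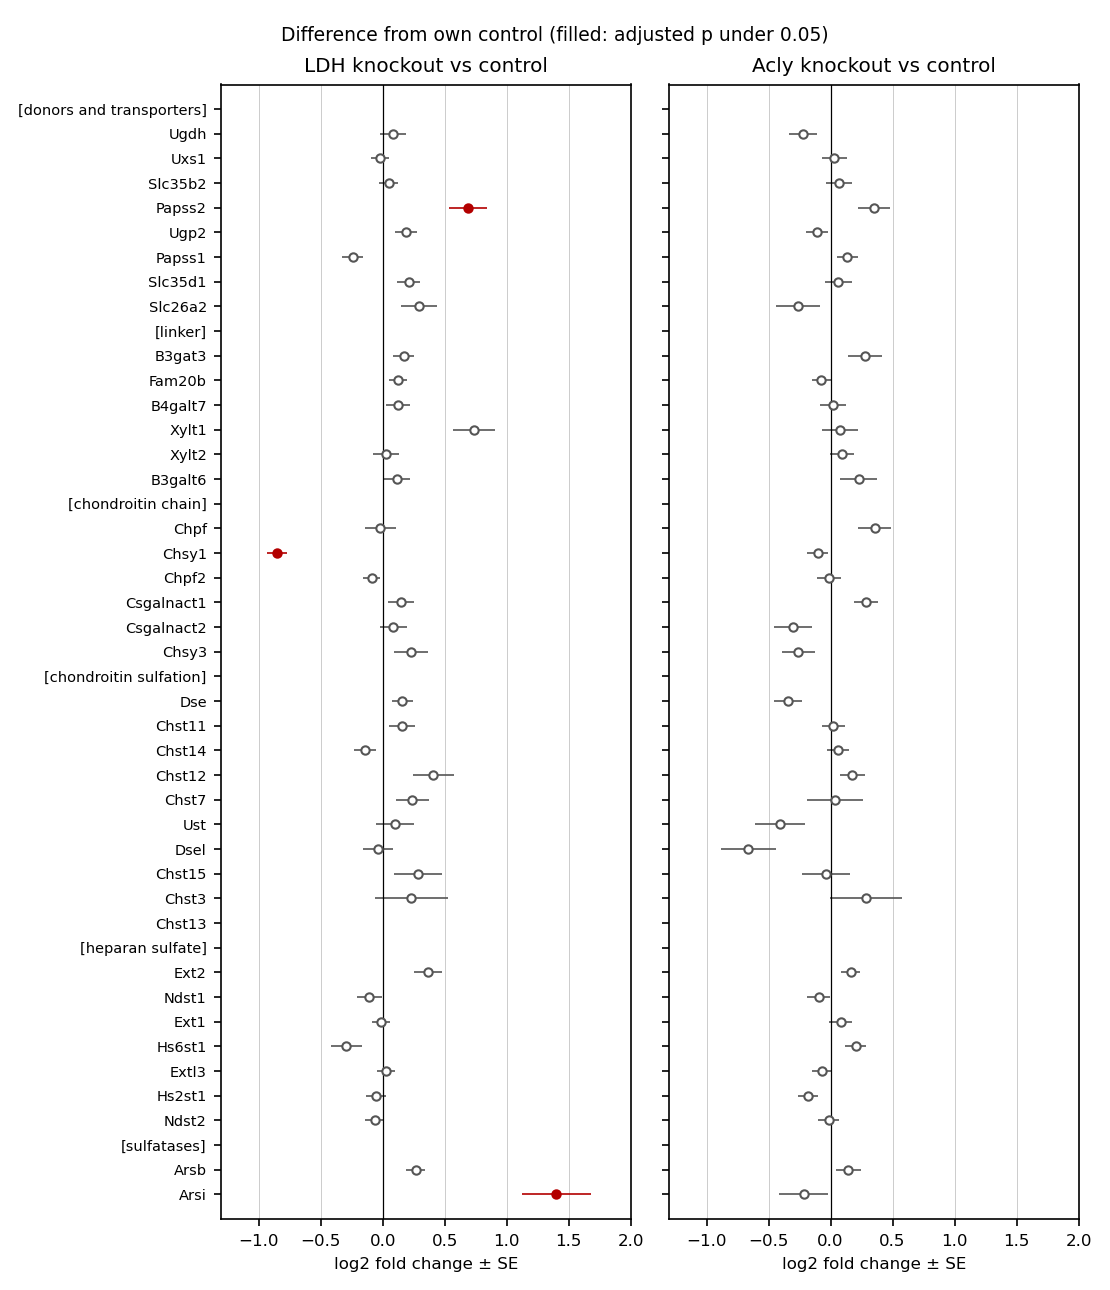
Log2 fold change ± SE of each tested member in the knockout against its own control, with the LDH comparison on the left and the Acly comparison on the right, and filled points for an adjusted p under 0.05. Chsy1 at -0.85, Papss2 at 0.69 and Arsi at 1.40 are filled on the left, and no point is filled on the right (Chst13 was not tested).

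Cell type markers moved in the LDH comparison as well. Of 9 chondrocyte markers tested 6 rose, and their summed level (each sum is over the genes tested) was 18740 to 28292 CPM in knockouts and 10279 to 11898 CPM in controls. Of 4 hypertrophic chondrocyte markers 1 rose, Col10a1 (log2 1.70, adjusted p = 0.0118), and the sum was 231 to 377 CPM against 98.0 to 158 CPM. Adipocyte markers rose in 5 of 6 tested, with a sum of 60.3 to 99.9 CPM against 30.9 to 45.3 CPM. Osteoblast markers fell in 2 of 6 tested, with a sum of 48.3 to 69.3 CPM against 103 to 120 CPM, and fibroblast or perichondrium markers in 1 of 7, with a sum of 245 to 303 CPM against 341 to 581 CPM. Of 5 skeletal muscle markers tested 1 rose, Tnnt3 (log2 1.47, adjusted p = 0.0351), with sums that overlap at 14.4 to 23.0 CPM against 15.3 to 25.1 CPM. No macrophage or leukocyte, endothelial or red blood cell marker was called. Dmp1, the osteocyte marker, was at or near 0 in both groups, with a mean of 0 TPM in knockouts and 0.0067 TPM in controls. In bulk RNA fewer cells of a type and less RNA per cell cannot be told apart, and the part of these markers in the members' differences was not tested. In the Acly comparison 2 of 10 chondrocyte markers rose (sum 15044 to 17536 CPM in knockouts, 9066 to 9961 CPM in controls). In both sets Col2a1 had by far the highest level of this list, so the sums mainly follow that gene. Its Acly means were 4335 TPM in knockouts and 2245 TPM in controls. Only 3 of the 10 markers were without overlap in the Acly set, all higher, and Hapln1 had a log2 difference of -0.079. Of 4 hypertrophic chondrocyte markers Col10a1 rose (log2 1.02, adjusted p = 0.0314), while Mmp13 had a log2 difference of -1.09 without overlap (adjusted p = 0.0694), and the sums overlapped at 159 to 197 CPM in knockouts and 192 to 223 CPM in controls. No marker of the other lists passed there. The fibroblast or perichondrium list had sums of 1263 to 3393 CPM in knockouts and 3504 to 4131 CPM in controls, the osteoblast list 172 to 215 against 233 to 261 CPM, and the macrophage or leukocyte list 135 to 145 against 105 to 119 CPM, each without overlap.

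Among the donor genes, the clearest difference was in Papss2 (Entrez 23972), the PAPS synthase whose loss gives brachymorphic mice with short limbs. Its level was 196, 283 and 188 CPM in the LDH knockouts and 146, 145 and 122 CPM in the controls, so that the groups did not overlap and knockout replicate 2 was far above the rest. Papss2 rose 1.61-fold (log2 0.69, SE 0.15, adjusted p = 0.0473), and the call was lost without any one of knockout replicates 1 and 2 and control replicates 1, 2 and 3 (log2 0.48 to 0.78, adjusted p = 0.0792 to 0.122). Acly knockouts had 183, 244 and 239 CPM of Papss2 and their controls 154, 176 and 192 CPM. These values overlap, and the log2 difference was 0.35 (SE 0.13, adjusted p = 0.279).

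Papss1, the other PAPS synthase, lay the other way in the LDH set, at 24.1, 24.0 and 23.3 CPM in knockouts and 27.7, 29.5 and 27.3 CPM in controls. All 3 knockouts were below all 3 controls, but the log2 difference of -0.24 (SE 0.081) did not pass (adjusted p = 0.143). In TPM, Papss2 made up 85.4, 89.4 and 85.4% of the pair in the LDH knockouts and 79.2, 78.0 and 76.2% in the controls. Papss1 in Acly knockouts was 41.0, 38.0 and 40.6 CPM, and in their controls 36.3, 37.7 and 35.0 CPM, here with the knockouts above the controls (log2 0.13, SE 0.086, adjusted p = 0.438). Ext2 and Papss1 were the members without overlap between knockout and control in both comparisons, 2 of 38, beside 5.62% of all genes.

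Ugdh, the most abundant member, was 217, 227 and 254 CPM in LDH knockouts and 216, 247 and 196 CPM in controls, which overlap (log2 0.082, SE 0.10). At E18.5 the Acly knockouts had 147, 189 and 177 CPM against 185, 199 and 215 CPM in controls, overlapping as well (log2 -0.22, SE 0.11, adjusted p = 0.357). Slc35d1, which carries UDP-glucuronic acid and UDP-N-acetylgalactosamine into the endoplasmic reticulum, was 36.6, 41.1 and 37.1 CPM in LDH knockouts and 32.8, 30.8 and 35.8 CPM in controls. The knockouts were all higher, with a log2 difference of 0.21 (SE 0.090) that did not pass (adjusted p = 0.237). Slc26a2, the sulfate transporter of the cell membrane, was also higher in every LDH knockout than in every control, at 12.1 to 12.9 CPM against 8.19 to 11.5 CPM (log2 0.29, adjusted p = 0.299). The other 3 genes of the group, Ugp2, Uxs1 and Slc35b2, overlapped between knockout and control in both sets, with log2 differences of -0.11 to 0.19.

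The 6 linker genes had positive log2 differences in the LDH set, from 0.030 for Xylt2 to 0.74 for Xylt1, and none passed the threshold. Xylt1 (Entrez 233781), a xylosyltransferase that starts the chain on the core protein, was 36.6, 46.3 and 39.3 CPM in LDH knockouts and 29.6, 26.1 and 17.6 CPM in controls. Control replicate 3 was the lowest of the 6 and no knockout value fell among the controls. The log2 difference was 0.74 (SE 0.17), just outside the threshold at an adjusted p of 0.0547, and it was 0.55 without control replicate 3 and 0.90 without control replicate 1 (adjusted p = 0.0757 and 0.0517). Its share of the Xylt1 and Xylt2 pair in TPM was 59.6, 65.8 and 59.2% in LDH knockouts and 54.0, 53.9 and 39.1% in controls. Xylt1 was 36.9, 29.4 and 43.1 CPM in Acly knockouts and 31.4, 37.6 and 34.8 CPM in controls, with the knockouts on both sides of the controls.

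B3gat3, the most abundant linker gene, was 79.8, 74.3 and 67.8 CPM in LDH knockouts and 65.0, 62.2 and 70.2 CPM in controls, which overlap (log2 0.17, SE 0.086, adjusted p = 0.314). Acly knockouts had 78.7, 116 and 95.6 CPM and their controls 85.4, 77.4 and 77.0 CPM, where knockout replicate 2 was the highest of the 6 and the groups overlapped (log2 0.28, SE 0.14, adjusted p = 0.353). B4galt7, which adds the first galactose, was 26.5, 28.2 and 30.1 CPM in LDH knockouts and 26.8, 27.9 and 23.1 CPM in controls. The level of B4galt7 was 22.9, 27.0 and 25.7 CPM in Acly knockouts and 24.4, 24.5 and 25.7 CPM in controls. Knockout and control values overlapped in both sets for B4galt7, as they did for Xylt2, B3galt6, which adds the next galactose, and Fam20b, the xylose kinase.

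The chondroitin chain genes held the member with the lowest adjusted p of all. Chsy1 (Entrez 269941), a chondroitin synthase, was 71.6, 72.5 and 74.1 CPM in the LDH knockouts and 143, 122 and 128 CPM in the controls. The knockouts lay close together and the lowest control was far above the highest knockout. Chsy1 fell 1.80-fold (log2 -0.85, SE 0.079, adjusted p = 0.00194) and remained called when any one of the 6 samples was left out, with log2 differences of -0.90 to -0.78. With the Y-linked signal as a covariate the difference was -0.81 and was not called (adjusted p = 0.121). Against control replicate 3 alone, the control with a low Y-linked signal, it was -0.82 (adjusted p = 0.0480), with the lone control assumed to vary like the other group. The level of Chsy1 was 97.8, 110.2 and 104 CPM in Acly knockouts and 108, 115 and 112 CPM in controls, overlapping, with a log2 difference of -0.10 (SE 0.085, adjusted p = 0.547). In vM21 3.54% of the exon bases of Chsy1 overlap the antisense gene Gm26827, and whether the counting used strand was not given.

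Chsy1 lies on chromosome 7, as does Ldha, the targeted gene. Of the 39 tested genes between them 1 was called in the LDH comparison (2.56%). Of the 20 on either side of Chsy1, 40 in all, 2 were called (5%), both lower. Over the chromosome without Ldha, 36 of 1018 were called (3.54%), beside 2.49% of all genes tested. Xylt1 and Chst15 are on the same chromosome.

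The promoters of Chsy1 and Papss2 are shown because they belong to the called members that moved in opposite directions. They are the 250 bases before the start, from RefSeq on GRCm38.p6, 5′ to 3′ along the gene. Capitals mark ACGTG, the core letters of a hypoxia response element and of an E-box of the form CACGTG, and GGGCGG, the core of an Sp1 site, both searched on both strands. Chsy1 is on the plus strand with this window at chr7:66109242-66109491, and Papss2 is on the plus strand with this window, that of its first listed start, at chr19:32595465-32595714.
Chsy1: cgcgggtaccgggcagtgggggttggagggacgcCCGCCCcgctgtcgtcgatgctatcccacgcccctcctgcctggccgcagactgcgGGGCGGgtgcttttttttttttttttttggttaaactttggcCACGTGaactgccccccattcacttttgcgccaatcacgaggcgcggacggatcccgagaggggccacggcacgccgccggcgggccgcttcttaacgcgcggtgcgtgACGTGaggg
Papss2: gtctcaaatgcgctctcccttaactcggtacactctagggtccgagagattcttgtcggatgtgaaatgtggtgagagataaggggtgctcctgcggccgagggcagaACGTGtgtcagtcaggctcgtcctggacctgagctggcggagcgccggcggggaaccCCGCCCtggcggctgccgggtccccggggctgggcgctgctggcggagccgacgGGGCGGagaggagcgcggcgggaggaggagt
The Chsy1 window holds 3 matches to ACGTG, a pair of which overlap as CACGTG read on both strands, and 2 to GGGCGG. The Papss2 window holds 1 match to ACGTG and 2 to GGGCGG, and the window of its other start holds neither. Of the promoter table's 32851 windows 16.6% hold ACGTG and 32.7% hold GGGCGG. Among the 37 windows of the 31 members with an entry, the shares were 21.6% and 70.3%. ACAAAG or ACAATG, letters that Sox proteins bind, were in 25.2% of all windows and in 5.41% of the members' windows, and in neither window printed here. The shares over all windows were taken without matching to the members for GC content or expression. A match describes letters in this window only.

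The other chondroitin chain genes overlapped between LDH knockout and control. Chpf, which works with the synthases and is the most abundant of the group, was 227, 209 and 213 CPM in LDH knockouts and 195, 194 and 268 CPM in controls, where control replicate 3 was above the knockouts and the other 2 below (log2 -0.020, SE 0.12). Acly knockouts had 204, 285 and 261 CPM of Chpf and Acly controls 215, 185 and 185 CPM, which overlap (log2 0.36, SE 0.13, adjusted p = 0.274). Chsy3, a second chondroitin synthase, was 33.1, 39.6 and 38.1 CPM in LDH knockouts and 38.7, 27.0 and 28.7 CPM in controls, overlapping (log2 0.23, adjusted p = 0.387). For Chpf2, 44.1% of the exon bases overlap Smarcd3 on the opposite strand, so its level is uncertain.

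Csgalnact1, which adds the first N-acetylgalactosamine and so commits a chain to chondroitin, had the lowest p of the group in the Acly comparison. Its level was 66.1, 56.0 and 55.2 CPM in Acly knockouts and 46.6, 50.6 and 48.1 CPM in controls. Every knockout was higher than every control, by a log2 difference of 0.29 (SE 0.098) that did not pass (adjusted p = 0.26). In the LDH set it was 30.0, 36.1 and 29.5 CPM against 31.3, 27.8 and 27.2 CPM, with overlap (log2 0.15, adjusted p = 0.469). Csgalnact2 overlapped in both sets.

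**Figure D3:**
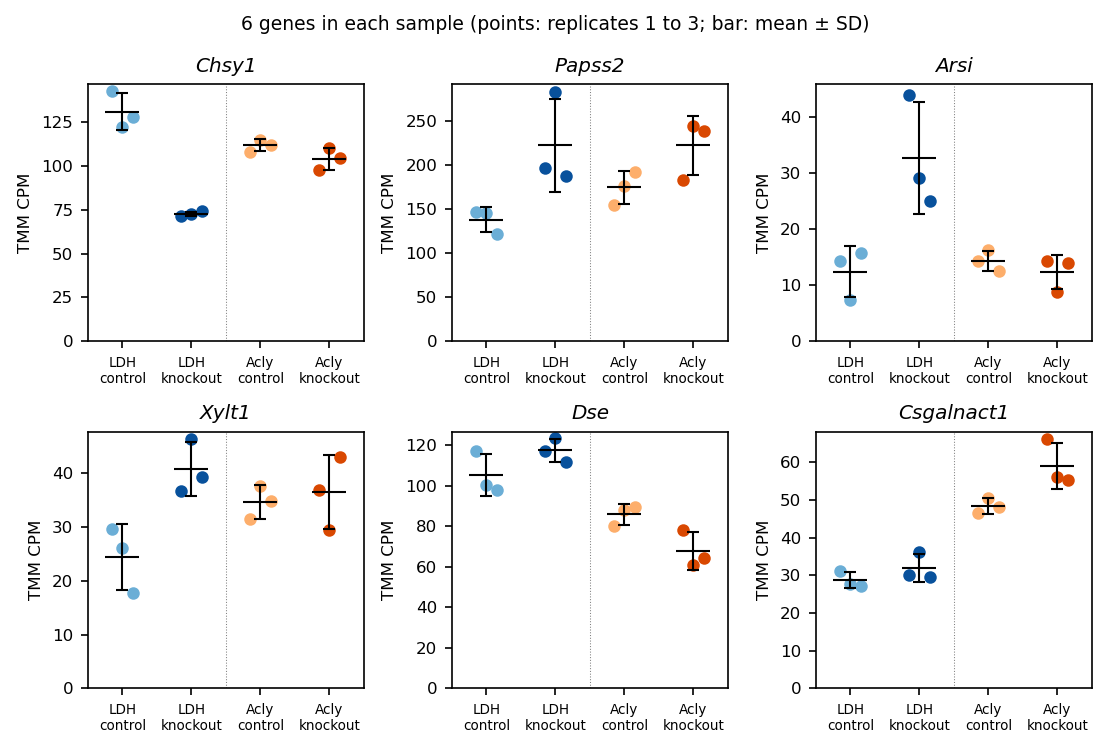
TMM-scaled CPM of 6 members in each sample (points, replicates 1 to 3 from left to right) with mean ± SD (n = 3), scaled within the 6 samples of each set, so that levels are not comparable across the dotted line. Chsy1 in the LDH knockouts sits between 71.6 and 74.1 CPM, below all LDH controls, while its Acly groups overlap.

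Within the 6 chondroitin chain genes, Chsy1 took 12.7, 13.3 and 13.7% of the summed TPM in the LDH knockouts and 24.1, 22.1 and 19.8% in the controls. Each knockout share was below each control share. The share was 16.4, 15.6 and 14.7% in Acly knockouts and 17.2, 19.1 and 18.8% in controls, also without overlap and with a smaller gap. The level of Chsy1 itself overlapped in the Acly set. There Chpf took a mean of 48.2% of the sum in knockouts and 41.5% in controls, with overlap. The sum also includes Chpf2, whose level is uncertain.

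**Figure D4:**
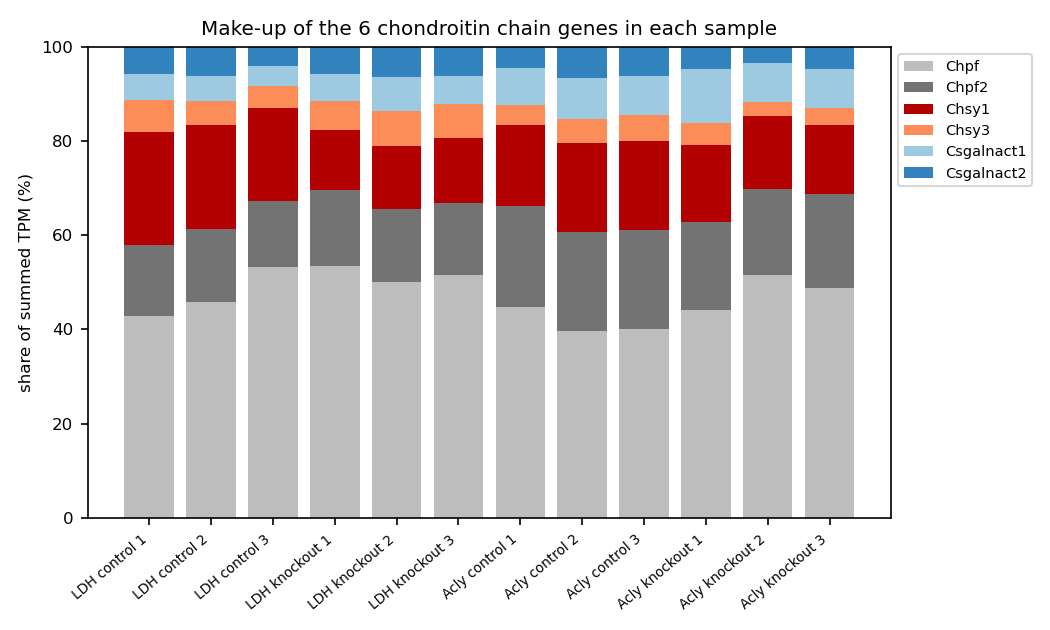
Share (%) of the summed TPM of the 6 chondroitin chain genes taken by each gene in each of the 12 samples, as stacked bars. The Chsy1 segment is 12.7% to 13.7% in LDH knockouts and 19.8% to 24.1% in LDH controls.

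Aggrecan (Acan), the main carrier of chondroitin sulfate in cartilage, moved against Chsy1 in the LDH set. Acan rose (log2 1.22, SE 0.13, adjusted p = 0.00351), and the level of Acan per level of Chsy1, both in TPM, was 12.9, 16.4 and 12.4 in LDH knockouts and 3.36, 3.46 and 2.89 in controls. The ratio was 7.70, 8.57 and 9.83 in Acly knockouts and 5.50, 5.22 and 5.71 in controls, where Acan was not called (log2 0.56, adjusted p = 0.148). Per level of Papss2, Acan was 4.15, 3.73 and 4.33 in LDH knockouts and 2.96, 2.61 and 2.76 in controls. Per summed TPM of the 39 members, Acan was 0.280, 0.347 and 0.287 in LDH knockouts and 0.156, 0.144 and 0.123 in controls. Acan is also in the list of chondrocyte markers. These ratios describe transcripts and say nothing of chains per core protein.

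None of the 9 tested sulfation and epimerization genes passed in either knockout comparison. Chst12, a chondroitin 4-O-sulfotransferase, had the lowest p of the group in the LDH set, at 37.2, 41.7 and 28.5 CPM in knockouts and 28.6, 21.3 and 31.1 CPM in controls. Knockout replicate 3 lay within the controls and the other 2 above them (log2 0.41, SE 0.16, adjusted p = 0.208). Chst12 was 44.6, 50.2 and 47.2 CPM in Acly knockouts against 46.6, 38.5 and 40.6 CPM, also with overlap. Chst11, the 4-O-sulfotransferase required for cartilage development in mice, was 127 to 158 CPM in LDH knockouts and 116 to 138 CPM in controls (log2 0.16, SE 0.10). For the Acly knockouts Chst11 was 114 to 129 CPM against 113 to 129 CPM (log2 0.021, SE 0.092).

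Dse and its paralog Dsel, the dermatan sulfate epimerases, had the lowest p-values of all members in the Acly comparison. Dse was 78.3, 60.6 and 64.3 CPM in Acly knockouts and 79.9, 88.0 and 89.6 CPM in controls. All knockouts were lower, though knockout replicate 1 lay close to control replicate 1, and the log2 difference of -0.34 (SE 0.11) did not pass (adjusted p = 0.258). In the LDH set Dse was 117, 123 and 112 CPM in knockouts and 117, 100.5 and 98.0 CPM in controls, with overlap (log2 0.16, adjusted p = 0.348). Dsel was 12.9, 9.12 and 14.7 CPM in Acly knockouts and 14.8, 24.1 and 19.3 CPM in controls, where the highest knockout was just under the lowest control (log2 -0.66, SE 0.22, adjusted p = 0.259). Ust, the uronyl 2-O-sulfotransferase, was also lower in every Acly knockout, at 7.26 to 12.6 CPM against 13.2 to 15.1 CPM (log2 -0.41, SE 0.20, adjusted p = 0.353). Knockout replicate 2 was the lowest of the 6 Acly samples for Dse, Dsel and Ust, and was the lowest for 12 and the highest for 10 of the 38 members. It also had the least Acly, which was 83.0, 52.5 and 87.0 CPM in the knockouts. Whether the 2 go together was not tested.

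The 6-O-sulfotransferases Chst3 and Chst7 were at low levels and overlapped in both knockout comparisons. Chst3 was 0.871, 1.19 and 1.13 CPM in LDH knockouts and 1.05, 0.954 and 0.713 CPM in controls, resting on 19 to 32 counts a sample. Levels of Chst3 were 5.72, 4.30 and 9.74 CPM in Acly knockouts and 6.44, 5.24 and 4.57 CPM in controls. The share of 6-O genes in the summed TPM of the 4-O and 6-O sulfotransferases was 11.5 ± 1.54% in LDH knockouts and 11.7 ± 2.59% in controls, and 7.50 ± 0.837% in Acly knockouts and 7.57 ± 0.794% in controls (mean ± SD, n = 3), with overlap in each set.

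Among the 7 heparan sulfate genes none was called in either comparison, and their median log2 difference was -0.051 in the LDH set and -0.015 in the Acly set. Ext2, a subunit of the polymerase with Ext1, had the lowest p of them in the LDH set, at 140.3, 136 and 109.9 CPM in knockouts and 109.7, 87.1 and 103 CPM in controls. The lowest knockout and the highest control nearly touched (log2 0.36, SE 0.11, adjusted p = 0.122), and without knockout replicate 3 the difference was 0.47 and was called (adjusted p = 0.0305). Ext2 was 158, 156 and 159 CPM in Acly knockouts and 146, 137 and 139 CPM in controls, with all knockouts above all controls (log2 0.16, SE 0.079, adjusted p = 0.349). Ext1 showed log2 differences of -0.012 in the LDH set and 0.083 in the Acly set.

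Hs6st1, a heparan sulfate 6-O-sulfotransferase, was 55.0, 53.3 and 62.2 CPM in LDH knockouts and 66.2, 59.0 and 83.7 CPM in controls, which overlap (log2 -0.29, SE 0.12, adjusted p = 0.234). Hs6st1 was 77.3, 81.9 and 73.7 CPM in Acly knockouts and 71.2, 64.6 and 66.6 CPM in controls, with the knockouts all higher (log2 0.20, SE 0.086, adjusted p = 0.309). Hs2st1, the 2-O-sulfotransferase, was 54.4, 49.7 and 54.7 CPM in Acly knockouts and 59.7, 62.2 and 58.4 CPM in controls, with the knockouts all lower (log2 -0.18, SE 0.084, adjusted p = 0.327). In the LDH set Hs2st1 was 35.0, 36.6 and 39.2 CPM in knockouts and 37.5, 37.0 and 40.2 CPM in controls, which overlap. Extl3, which starts heparan sulfate chains, was lower in every Acly knockout by a log2 difference of -0.069 (adjusted p = 0.656). The N-deacetylase and N-sulfotransferase genes Ndst1 and Ndst2 overlapped in both sets.

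Arsi (Entrez 545260), which encodes arylsulfatase I, had the largest log2 difference of the 38 members in the LDH comparison. Whether this enzyme acts on glycosaminoglycan chains was not tested. It was 44.0, 29.1 and 25.1 CPM in LDH knockouts and 14.3, 7.31 and 15.7 CPM in controls. The groups did not overlap, but the spread was wide, with knockout replicate 1 far above the other knockouts and control replicate 2 at the low end. Arsi rose 2.64-fold (log2 1.40, SE 0.28, adjusted p = 0.0335), and the call was lost without knockout replicate 1 (log2 1.13, adjusted p = 0.120), knockout replicate 2 (1.48, 0.0743), control replicate 1 (1.51, 0.0677) or control replicate 3 (1.60, 0.0668). For Acly, Arsi was 14.4, 8.76 and 13.9 CPM in knockouts and 14.3, 16.2 and 12.6 CPM in controls, with overlap (log2 -0.22, SE 0.20, adjusted p = 0.582). Without LDH knockout replicate 3, on the other hand, 5 members were called in the LDH comparison, which were Arsi, Chsy1, Ext2, Papss2 and Xylt1. The share of all genes called in that run is not given here.

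Arsb, the lysosomal sulfatase that removes 4-sulfate from chondroitin and dermatan sulfate, was 59.2, 53.9 and 53.5 CPM in LDH knockouts and 44.6, 46.9 and 47.0 CPM in controls. The knockouts were all higher and the controls lay close together, but the log2 difference of 0.27 (SE 0.077) did not pass (adjusted p = 0.0989). In the Acly set Arsb was 85.6, 79.8 and 97.8 CPM in knockouts and 77.7, 83.7 and 76.8 CPM in controls, which overlap (log2 0.14, SE 0.10, adjusted p = 0.471). In vM21 32.3% of the exon bases of Arsb overlap Gm26527 on the opposite strand.

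Arsi, Papss2 and Xylt1 were also read with regard to the Y-linked difference between the LDH groups. With the Y-linked signal as a covariate the log2 difference was 0.95 for Arsi (adjusted p = 0.382), 0.91 for Papss2 (adjusted p = 0.230) and 1.31 for Xylt1 (adjusted p = 0.121), and no member was called. Against control replicate 3 alone it was 1.06 for Arsi (adjusted p = 0.267), 0.87 for Papss2 (adjusted p = 0.250) and 1.21 for Xylt1 (adjusted p = 0.0644), and Chsy1 was the member called. In the knockout samples the Y-linked signal was at or near 0 throughout, so sex and genotype cannot be told apart beyond that single control.

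Whether a member moved differently in the LDH and Acly comparisons was tested in 1 fit of all 12 samples. Chsy1 was the single member of 38 called, 2.63%, beside 0.161% of all genes. Its LDH difference was lower than its Acly difference by 0.73 on the log2 scale (log2 -0.73, SE 0.11, adjusted p = 0.0187). The call was lost without LDH knockout replicate 1 or 2 or Acly control replicate 1 or 3 (log2 -0.73 to -0.71, adjusted p = 0.0532 to 0.0795). It was also lost with the Y-linked signal as a covariate and with the replicate number as a block. Arsi had the next lowest p, with a difference of 1.63 (SE 0.39) that did not pass (adjusted p = 0.139). The lowest p in the other roles belonged to Dse at 0.51 (adjusted p = 0.21), Papss1 at -0.36 (adjusted p = 0.22), Hs6st1 at -0.48 (adjusted p = 0.266) and Xylt1 at 0.67 (adjusted p = 0.299). The gene deleted, the age of the mice, the mouse line and any library batch cannot be told apart in this test. The LDH groups also differed in makeup by sex. In the Acly set the Y-linked signal was uneven too, at 0.0755, 74.3 and 82.8 CPM in knockouts and 0.375, 121 and 2.83 CPM in controls.

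Between the control groups many more members differed than between a knockout and its control. With all 12 samples scaled together, 17 of 38 members, 44.7%, were called between Acly controls at E18.5 and LDH controls at postnatal day 5, beside 55.0% of all genes. Of these 12 were higher in Acly controls (31.6% of members, beside 29.4% of all genes) and 5 lower (13.2%, beside 25.7% of all genes). Without scaling 22 were called, 19 of them higher, and the median of all genes was then 0.19 above 0 on the log2 scale. Leaving out LDH control replicate 2 gave 16 called, 8 of them higher. For these runs the share of all genes called is not given here. Age, mouse line and any library batch cannot be told apart here. The makeup by sex differed as well, with Y-linked sums of 93.0, 102 and 0.590 CPM in LDH controls and 0.375, 121 and 2.83 CPM in Acly controls.

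Chst3 differed most. It was 6.14, 4.97 and 4.33 CPM in Acly controls and 1.12, 1.01 and 0.750 CPM in LDH controls, with no overlap and a log2 difference of 2.41 (SE 0.31, adjusted p = 3.18e-05). Chst7, the other 6-O-sulfotransferase, lay the other way, at 6.68, 4.97 and 6.00 CPM in Acly controls and 9.66, 12.7 and 10.9 CPM in LDH controls (log2 -0.92, SE 0.19, adjusted p = 0.000991). Chst3 made up 24.3, 25.9 and 20.4% of the TPM of both genes in Acly controls and 3.93, 2.68 and 2.38% in LDH controls.

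Arsb was higher in the Acly controls, at 74.1, 79.3 and 72.9 CPM against 47.4, 49.7 and 49.5 CPM (log2 0.63, SE 0.088, adjusted p = 6.01e-05). So was Csgalnact1, at 44.4, 47.9 and 45.7 CPM against 33.2, 29.4 and 28.6 CPM (log2 0.60, SE 0.10, adjusted p = 0.000341). Hs2st1 was 56.9, 58.9 and 55.4 CPM against 39.9, 39.2 and 42.3 CPM (log2 0.50, SE 0.079, adjusted p = 0.000156). All 3 genes were without overlap between the control groups.

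Slc35d1 was lower in Acly controls, at 20.5, 23.9 and 25.0 CPM against 34.8, 32.6 and 37.7 CPM in LDH controls (log2 -0.60, SE 0.093, adjusted p = 0.000136). Chsy1 was lower there too, at 103, 109 and 106 CPM against 152, 129 and 135 CPM (log2 -0.39, SE 0.074, adjusted p = 0.00071). B4galt7 had the lowest p among the linker genes and none of those was called (log2 -0.22, adjusted p = 0.0703). The other called members were Ext1, Chpf2, Dsel, Chst14, Ext2, Slc35b2, Chst12 and Papss1, higher in Acly controls by 0.21 to 0.77 on the log2 scale, and Dse and Ugdh, lower, at -0.45 and -0.30. All 7 fibroblast or perichondrium markers were higher in Acly controls, with sums of 3340 to 3915 CPM against 361 to 618 CPM. So were 6 of 6 skeletal muscle markers (228 to 314 against 16.5 to 27.3 CPM), 4 of 4 endothelial markers (64.0 to 77.0 against 7.90 to 11.9 CPM), 6 of 7 adipocyte markers (232 to 256 against 32.5 to 48.0 CPM), 4 of 6 osteoblast markers and 2 of 3 red blood cell markers. Chondrocyte markers were higher in 7 and lower in 1 of 10, with sums of 8642 to 9439 against 10892 to 12638 CPM. The lower 1 was Col2a1 (log2 -0.82), the gene with the highest level of that list, so the sum was lower too. Hypertrophic chondrocyte markers were higher in 3 and lower in 1 of 4, and macrophage or leukocyte markers higher in 3 and lower in 1 of 5. The part of these markers in the members' differences was not tested.

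**Figure D5:**
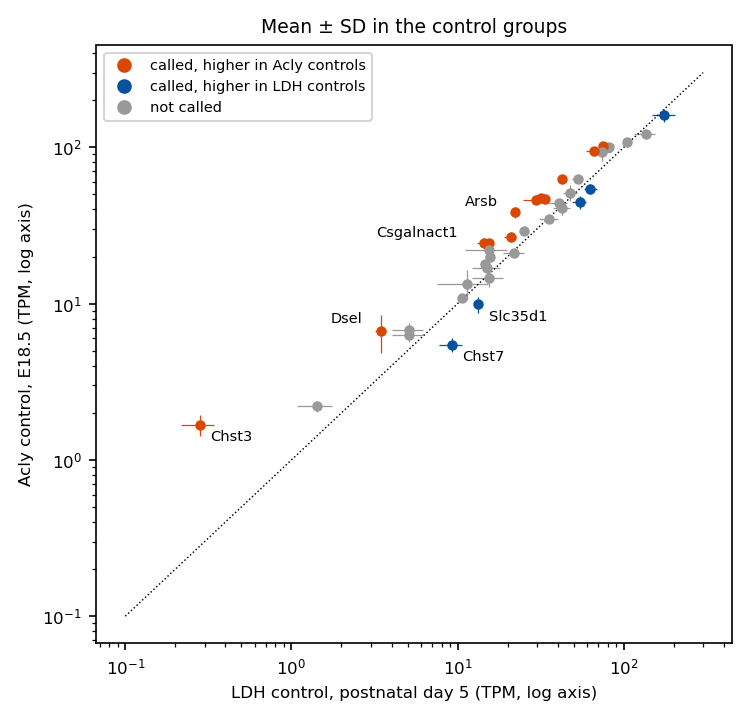
Mean ± SD (n = 3) of each tested member in LDH controls (x axis, TPM, log) and Acly controls (y axis, TPM, log), with the dotted line marking equal TPM and colours the calls, which were made on TMM-scaled counts. Chst3 lies farthest above the line at 0.28 and 1.68 TPM, and Chst7 below it at 9.19 and 5.47 TPM.

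Other genes of the pathway were counted in lists of non-members. In the LDH comparison 0 of 26 tested genes for other synthesis steps rose and 2 fell, Hs3st1, a heparan sulfate 3-O-sulfotransferase (log2 -1.31, SE 0.19, adjusted p = 0.0101), and Ndst3, an N-deacetylase and N-sulfotransferase (log2 -1.22, SE 0.22, adjusted p = 0.0258). Their median log2 difference was -0.066. Of 22 turnover genes 0 rose and 1 fell, the hyaluronidase gene Hyal1 (log2 -0.53, SE 0.095, adjusted p = 0.0226), with a median of 0.054. Of 24 tested core protein genes 5 rose and 0 fell, with a median of 0.15. These were Acan, the glypicans Gpc3 (0.74, adjusted p = 0.0115) and Gpc6 (0.46, adjusted p = 0.0469), Cspg4, also known as NG2 (0.58, adjusted p = 0.0191), and agrin, Agrn (0.49, adjusted p = 0.0282).

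In the Acly comparison 0 of 27 tested genes for other synthesis steps and 0 of 24 core protein genes were called by edgeR. Of 22 turnover genes 1 fell, Sulf1, which trims 6-O-sulfate from heparan sulfate outside the cell (log2 -0.75, SE 0.10, adjusted p = 0.0408), and 0 rose. In the test of the difference between the comparisons 1 of these non-members was called, Hs3st1 (log2 -1.59, SE 0.28, adjusted p = 0.0442), with an LDH difference of -1.31 and an Acly difference of 0.30.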

How the data were processed

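RNA of 12 samples, 3 in each of 4 groups, was measured by sequencing of oligo(dT)-selected RNA, per the labels' protocols. The authors deposited 1 table with a read count, an FPKM value and a TPM value for each of 17922 genes and each sample, per the file headers. The headers name FPKM and TPM only, and these were read by their usual meaning, as fragments or transcripts per 1000000 with the transcript length divided out. From 7.32% to 8.16% of a sample's deposited counts have a fractional part, so the authors' counts are estimated counts, in which a read can be shared among genes. The submitters' processing notes name HISAT2 2.0.4 and mm9, while a counting program, an annotation and whether strand was used are not given in the sources used here. Of the per-sample value columns 0 could not be mapped to a sample.

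After rounding, the counts were tested in edgeR 4.0.16 (R 4.3.3) with filterByExpr, TMM scaling, two-sided quasi-likelihood tests and Benjamini-Hochberg adjustment over all genes tested, called under 0.05. A fit of 6 samples set each knockout against its control. One model over all 12 samples gave the difference between both effects and that between the control groups. The SE of a log2 fold change was obtained by dividing it by the square root of its F statistic. Levels are CPM scaled by TMM within the 6 samples of a set, or over all 12 for the control groups. TPM was used to compare levels between genes and for shares, with no test. Alternatives were median-of-ratios scaling, no scaling, other filters, DESeq2 1.42.0, limma 3.58.1 on log2(FPKM + 1) and log2(FPKM + 0.1), the replicate number as a block, all 12 samples in 1 fit, the summed Y-linked CPM + 0.5 on the log2 scale as a covariate, and leaving out each sample.

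The members and lists were chosen with earlier results of these data known. Values in every sample are given for members past the threshold in a knockout comparison or in the difference of effects, for the lowest p in each role and comparison, and for the most abundant member of each role. Members whose groups did not overlap in a knockout comparison are given with their difference. Dsel, Ust, Slc26a2, Chst11, Chsy3 and Chst7, and the levels of Chst3 in the knockout comparisons, were added after their values were seen. Promoters came from RefSeq's table on GRCm38.p6, in which 31 of 39 members had an entry. That build and GENCODE vM21 are not the build of the files and were used for gene order, exon overlaps and the promoters shown only. The labels do not say whether samples of a group came from separate animals or cultures, so p-values measure the spread between these samples, which may be technical. No molecular identifiers are named, so limits from counts cover counting error only.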

Additional observations from a re-analysis of the deposited data

Results flagged for a closer look

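Chsy1, a chondroitin synthase gene, was singled out because its response differed between the LDH and Acly comparisons by a test of the difference itself. The LDH difference minus the Acly difference was -0.73 on the log2 scale (SE 0.11, adjusted p = 0.0187 by edgeR over 14251 genes). In the LDH set all 3 knockouts were below all 3 controls, and in the Acly set the groups overlapped. The knockouts differ in the gene deleted, in age and in mouse line, which cannot be told apart from each other or from any library batch. The LDH groups also differ in makeup by sex, and the Y-linked signal was uneven in the Acly set too. Chsy1 was not called in this test with the Y-linked signal as a covariate.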

How the results depend on the processing

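None of the differences checked changed direction under any alternative run. Those checked were the called members of each test, the targeted genes Ldha and Acly, and some further members of the knockout comparisons. The latter were without overlap or had the lowest p of a role. Other differences were not checked for direction. For the LDH comparison, in which 3 members were called, the count was 5 with DESeq2, 1 with limma on log2(FPKM + 1), 0 with the Y-linked signal as a covariate, 1 with control replicate 3 as the lone control (chosen after seeing the data), and 1 to 5 when each replicate was left out in turn. Chsy1 remained called in 16 of 17 alternatives (log2 -0.90 to -0.78), all but the Y-linked covariate, Arsi in 10 of 17 (0.95 to 1.60) and Papss2 in 7 of 17 (0.48 to 0.91), while Xylt1 passed in 5 of 17 (0.55 to 1.31) and Ext2 in 2 of 17. For the Acly comparison the count was 0 in all 16 alternatives. Acly, the deleted gene, was itself called in 9 of 16 (log2 -1.54 to -1.21). A count of 0 there cannot show that the members were unchanged. For the difference between the comparisons, in which 1 member was called, the count was 2 with DESeq2, 0 with the Y-linked covariate and 0 to 1 when each replicate was left out. Between control groups 14 to 22 members were called. The share of all genes called in each run is not given beside the counts in this section. These counts therefore do not show whether members changed apart from other genes. The cause of these changes was not tested.

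Knockout and control samples share the numbers 1 to 3, but same-numbered samples did not deviate together (correlations of 0.049, -0.16 and 0.0062 in the LDH set and 0.0011, -0.21 and -0.22 in the Acly set, with 1 of 6 and 0 of 6 samples closest to their own number). With the replicate block 4 members were called in the LDH comparison, 0 in the Acly comparison and 0 in the difference between them. Depth limits Chst13, with 0 to 5 counts a sample, and Chst3 in the LDH set.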
